A study of Mus musculus with 26 samples.

Results

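The 10 genes of the striated muscle sarcomere and its energy supply described here were followed in mammary tumors and tumor organoids: the myosin heavy chain genes Myh1, Myh2, Myh3, Myh4, Myh7 and Myh8, skeletal alpha-actin (Acta1), titin (Ttn), fast myosin regulatory light chain (Mylpf) and muscle creatine kinase (Ckm). They were 10 of the 37310 genes counted in each library, and they were selected on values of these same data: muscle genes stood out in 1 tumor, and Ttn and Myh8 in organoids. Within each system, their levels and fold changes are therefore a description with no test. Polyadenylated RNA was sequenced from 10 tumors and 16 organoid cultures, all from C57BL/6 mice carrying MMTV-PyMT, a transgene in which the mouse mammary tumor virus promoter drives polyoma middle T antigen, mainly in mammary epithelium. Every tumor-bearing mouse received an antisense oligonucleotide under the skin, 125 mg/kg per week over several weeks: Malat1 ASO1 (3 tumors), Malat1 ASO2 (4 tumors) or the control oligonucleotide scASO (3 tumors). Organoids, prepared from such tumors and grown in Matrigel with FGF2, received 500 nM of ASO1, ASO2 or scASO for 6 days, with medium renewed after 3 days, or a Mock treatment (4 cultures in each of the 4 groups). The labels give neither the age of the mice nor whether the tumors came from separate animals, so the spread between samples of a group may in part be technical.

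A sarcomere is built of thick filaments of myosin, thin filaments of actin and the giant protein titin, which spans from the Z-disc to the M-line. Skeletal muscle switches between myosin heavy chain genes: Myh3 (embryonic) and Myh8 (perinatal) are used in developing and regenerating fibres, Myh2 (type 2A), Myh1 (type 2X) and Myh4 (type 2B) in adult fast fibres, and Myh7 in slow fibres and the heart. Mammary epithelium is not known to make these proteins; its contractile myoepithelial cells use the smooth muscle genes Acta2 and Myh11.

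Of the 6 myosin genes, 5 lie in a row on mouse chromosome 11, all on the plus strand, in the order Myh3, Myh2, Myh1, Myh4, Myh8 (GRCm38 gene spans chr11:67078300-67102291, chr11:67171027-67197517, chr11:67200052-67224575, chr11:67238029-67260446 and chr11:67277124-67308634). Myh7 lies on chromosome 14, Ttn on 2, Acta1 on 8, and Mylpf and Ckm on 7. The promoters of the 5 clustered genes are shown because the developmental genes Myh3 and Myh8, at the 2 ends of the row, varied together in organoids, whereas the adult fast genes between them were high in 1 tumor. Each sequence runs from 250 bases before to 50 after the start listed by RefSeq (GRCm38.p6, plus strand). Capitals mark a 14-base run, TTCTAATTATATCC, and the letters TATAAA.
Myh3: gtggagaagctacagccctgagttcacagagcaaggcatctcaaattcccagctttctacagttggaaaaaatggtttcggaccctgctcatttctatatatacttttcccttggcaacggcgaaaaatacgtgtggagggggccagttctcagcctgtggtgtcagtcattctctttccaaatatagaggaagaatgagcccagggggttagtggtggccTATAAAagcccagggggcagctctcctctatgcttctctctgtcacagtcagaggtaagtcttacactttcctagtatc
Myh2: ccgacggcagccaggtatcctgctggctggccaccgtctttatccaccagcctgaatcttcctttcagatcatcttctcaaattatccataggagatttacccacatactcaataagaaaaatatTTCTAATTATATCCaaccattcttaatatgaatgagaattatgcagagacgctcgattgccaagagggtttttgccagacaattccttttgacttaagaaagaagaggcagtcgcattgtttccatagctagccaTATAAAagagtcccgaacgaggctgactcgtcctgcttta
Myh1: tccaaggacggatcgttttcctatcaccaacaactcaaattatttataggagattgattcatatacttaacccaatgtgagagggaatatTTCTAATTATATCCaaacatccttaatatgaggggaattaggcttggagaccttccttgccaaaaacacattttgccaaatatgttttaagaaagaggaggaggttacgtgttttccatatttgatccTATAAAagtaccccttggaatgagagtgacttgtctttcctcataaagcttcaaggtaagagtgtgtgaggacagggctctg
Myh4: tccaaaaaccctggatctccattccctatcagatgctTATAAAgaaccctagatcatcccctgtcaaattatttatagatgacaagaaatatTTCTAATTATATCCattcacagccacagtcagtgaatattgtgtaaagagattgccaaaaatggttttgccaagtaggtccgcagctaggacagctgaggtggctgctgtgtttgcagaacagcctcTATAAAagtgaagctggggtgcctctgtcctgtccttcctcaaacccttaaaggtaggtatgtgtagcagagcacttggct
Myh8: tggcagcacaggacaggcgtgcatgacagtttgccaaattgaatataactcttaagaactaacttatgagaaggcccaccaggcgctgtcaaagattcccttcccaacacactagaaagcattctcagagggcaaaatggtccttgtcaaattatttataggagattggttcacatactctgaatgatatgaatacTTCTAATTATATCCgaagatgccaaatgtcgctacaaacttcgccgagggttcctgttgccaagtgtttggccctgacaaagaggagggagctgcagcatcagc
The 14-base run was picked as the longest stretch common to the promoters of Myh1, Myh2, Myh4 and Myh8. Its presence in these 4 was thus fixed by the choice, and Myh3 was not part of the search. The run occurred in 4 of 32851 mouse promoters of this length (0.0122%, either strand), those of the same 4 genes, and not in this window of Myh3. It began 160 bases before the listed start in Myh1, 158 in Myh4, 125 in Myh2 and 54 in Myh8. In the same windows TATAAA began 32 bases before the listed start in Myh1 but 10 after it in Myh2. The distances thus depend on where the start is listed. TATAAA was present on either strand in 6 members (Myh1, Myh2, Myh3, Myh4, Myh8 and Acta1) and in 13.6% of all promoters. CAGCTG, a form of the E-box that myogenic bHLH factors such as MyoD and myogenin bind, was present on either strand in 4 members (Myh4, Acta1, Mylpf and Ckm) and in 16.3% of all promoters; the looser CANNTG, which contains it, was present in 8 members and in 72.3%.

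Tumor libraries held 9939520 to 51363552 reads counted in genes, and organoid libraries 23973533 to 65146030. Levels are given as CPM, counts per 1000000 reads assigned to genes, and 3 reads, the number that a count of 0 allows, correspond to 0.0461 to 0.302 CPM; intervals and floors cover counting error only. Luminal epithelial markers such as Epcam and Krt8 were present in every library, with a sum over 9 genes of 3873 to 6199 CPM in tumors and 4936 to 8672 CPM in organoids. Malat1, the oligonucleotides' target, was at 977 to 2170.4 CPM in scASO tumors and 409 to 1063 CPM in ASO tumors. In organoids it was at 694 to 1422 CPM in Mock, but the library labelled ASO2 replicate 1 held 1315 CPM and the one labelled scASO replicate 2 held 109 CPM, against their labels. Fold changes of the members in organoids were also fitted without these 2 libraries. Organoid libraries of the same replicate number deviated together in all 24 pairs of groups and numbers, whereas those of tumors did so in 3 of 9. In bulk RNA, fewer cells of a type and less RNA per cell cannot be told apart.

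In tumors, 1 library held nearly all of the signal. Myh4, the heavy chain of the fastest fibres, was at 0.921, 0.207 and 3.25 CPM in the 3 scASO tumors, 0.0442, 0.0779 and 0.136 CPM in the 3 ASO1 tumors, and 519.9, 3.71, 0 and 13.2 CPM in the 4 ASO2 tumors. ASO2 tumor 1 thus held 96.0% of the Myh4 signal of the 10 tumors, 39.4 times the next highest. Acta1, the actin of skeletal thin filaments, was at 0.725, 0.888 and 13.4 CPM with scASO, 1.11, 3.82 and 1.70 CPM with ASO1, and 498, 10.5, 0.163 and 17.7 CPM with ASO2. Mylpf, a light chain bound to the fast heavy chains, was at 1.31, 0.83 and 5.13 CPM with scASO, 0.752, 0.662 and 1.97 CPM with ASO1, and 308, 6.27, 1.35 and 14.3 CPM with ASO2. Both genes peaked in the same tumor, and ASO2 tumor 4 was second for both.

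Ttn was at 1.76, 1.15 and 3.08 CPM with scASO, 5.31, 2.38 and 3.39 CPM with ASO1, and 148, 3.17, 1.47 and 3.22 CPM with ASO2, where ASO2 tumor 1 was 27.9 times the next highest. Outside that tumor, Ttn varied over a narrower range than the other 3 genes just described, and its second highest level was in ASO1 tumor 1, not in ASO2 tumor 4. Ckm, which regenerates ATP beside the sarcomere, was at 0.307, 0.118 and 2.54 CPM with scASO, 0.177, 0.117 and 0.237 CPM with ASO1, and 87.8, 2.62, 0.204 and 5.13 CPM with ASO2. Myh1 was also highest in these tumors, with 74.9 CPM in ASO2 tumor 1, 2.36 CPM in scASO tumor 3, 2.27 CPM in ASO2 tumor 2 and 1.61 CPM in ASO2 tumor 4, and 0.0442 to 0.644 CPM in the other 6. Myh1, Myh4, Acta1, Mylpf and Ckm therefore had the same 4 highest tumors, ASO2 tumors 1, 4 and 2 and scASO tumor 3. These tumors came from 2 treatment groups, and scASO and ASO2 tumors overlapped for all 10 members. The share of all genes whose scASO and ASO2 tumors overlap was not computed, so nothing is read from this count. Of the 10 members, 7 were highest in ASO2 tumor 1 (70.0%), against 18.6% of the 19418 genes with a mean of at least 0.1 CPM in tumors. Muscle genes that stood out in 1 tumor led to the choice of the members, so this share restates that choice.

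**Figure D1:**
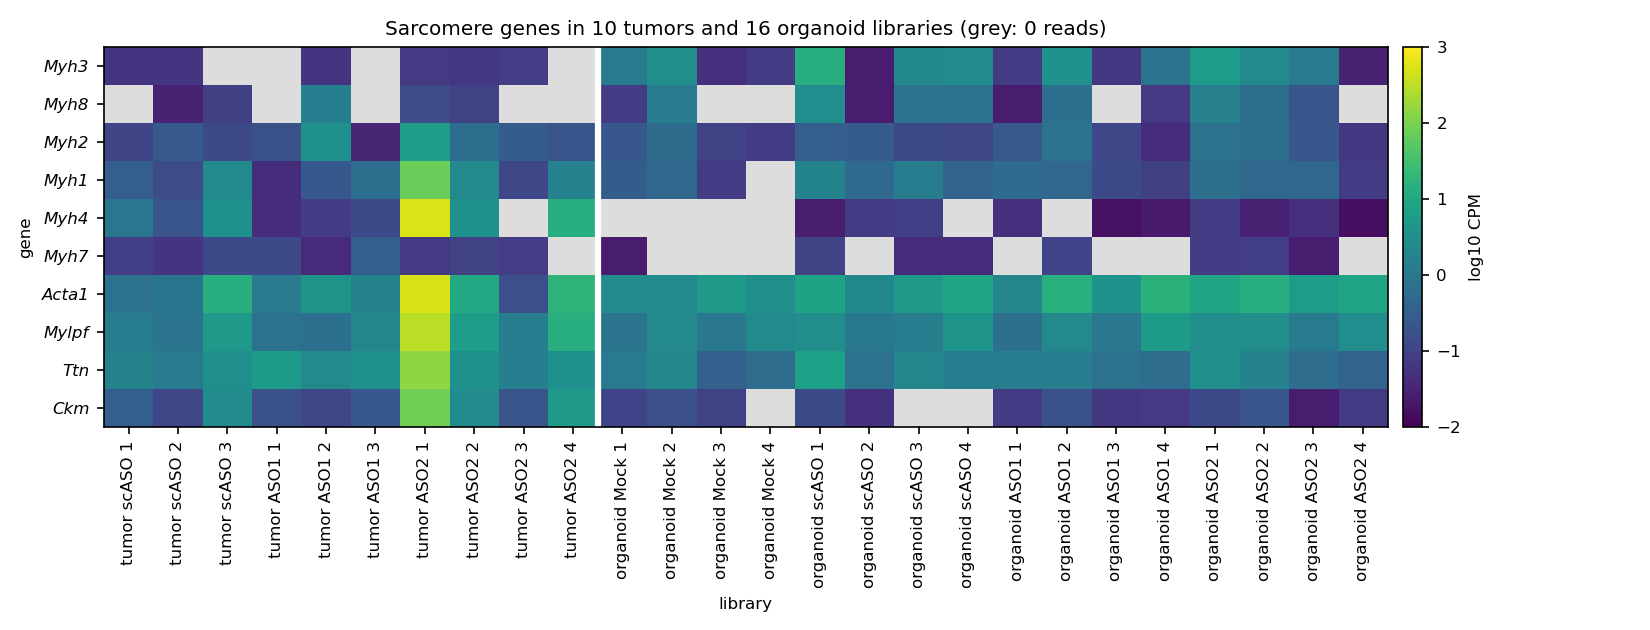
Level of the 10 genes (rows) in the 26 libraries (columns), as the base-10 logarithm of CPM, with grey cells for 0 reads and a white line between tumors and organoids. ASO2 tumor 1 is the brightest tumor for 7 genes (Myh4 at 519.9 CPM), while Myh3 and Myh8 are bright in some organoids and not in that tumor.

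The embryonic and slow heavy chains had few reads in tumors. Myh3 had 13 reads in the 10 tumors together, at most 0.0816 CPM, and 2 reads in ASO2 tumor 1. Myh7 had 29 reads in all and 2 in ASO2 tumor 1, where Myh4 had 14690. A different pattern was present in ASO1 tumor 2: it held 73 Myh8 reads (1.42 CPM, against at most 0.142 CPM in the other 9 tumors) and 164 Myh2 reads (3.19 CPM, second to the 6.41 CPM of ASO2 tumor 1), but only 4 Myh4 reads. Myh13, the neighbouring gene known from extraocular muscle, was also highest there at 1.21 CPM, as was the ryanodine receptor gene Ryr2 at 1.5 CPM; this tumor was singled out after its values were seen.

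The remaining genes of the fast fibre were high in the same tumor as the members. Of 36 other sarcomere and muscle-fibre genes, 28 were highest in ASO2 tumor 1, among them the fast troponins Tnnt3 (465 CPM there, at most 12.2 CPM in the other 9 tumors) and Tnni2 (331 CPM), the calcium buffer parvalbumin (Pvalb, 291 CPM), the essential light chain Myl1 (198 CPM) and the fast fibre calcium pump Atp2a1 (119 CPM). The summed level of the list was 2862 CPM in that tumor, 313 to 339 CPM in the other ASO2 tumors, 199.8 to 377 CPM with scASO and 287 to 609.7 CPM with ASO1. Much of it outside ASO2 tumor 1 came from Tpm2, a tropomyosin also made by smooth muscle, which was at 73.9 to 503 CPM and highest in ASO1 tumor 3. Of genes used by slow or cardiac muscle, Myl2 was at 0.177 CPM in ASO2 tumor 1, Tnnc1 at 0.0354 CPM and slow troponin I (Tnni1) at 0.425 CPM, and Myl3 and Myh6 had 0 reads. Cardiac troponin I (Tnni3) went the other way, at 65.0 CPM there and 9.87 to 43.4 CPM in the other 9 tumors, and made up most of the cardiac list, whose sum was 65.4 CPM there and 10.9 to 44.0 CPM in the others. Fast troponin C (Tnnc2) also had 0 reads there, but 74.0% of its exonic bases lie opposite exons of Ube2c, a cell cycle gene at 30.5 to 102 CPM in tumors, and whether reads were counted by strand is not known.

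Regulators of muscle formation were at low levels in tumors, and 6 of 13 were highest in ASO2 tumor 1 (46.2%). The share was 18.6% of the 19418 genes with a mean of at least 0.1 CPM, a limit that the list did not have. In that tumor Myf6, the member of the MyoD family kept on in adult fibres, was at 3.93 CPM, myogenin (Myog) at 0.672 CPM, Myod1 at 0.106 CPM and the fusion gene Mymk at 0.0354 CPM. Of the 12 genes of embryonic, regenerating or denervated muscle, 6 were highest there (50%), and the list's sum was 324 CPM, against 75.7 to 192 CPM in the other 9 tumors. Its most abundant gene in tumors, the acetylcholine receptor subunit Chrnb1, was at 165 CPM there and 33.3 to 87.6 CPM in the others, while the foetal subunit Chrng had 3 reads. Desmin (Des), the intermediate filament of muscle, was at 116 CPM in ASO2 tumor 1 and 0.681 to 5.44 CPM in the other 9. Fat cell genes moved with the muscle genes in part: 11 of 14 were highest in ASO2 tumor 1, and the summed list was at 1205 CPM there, 183 to 690.1 CPM in the other ASO2 tumors, 168 to 190.1 CPM with scASO and 136 to 179 CPM with ASO1. The adipokine Adipoq was at 70.4, 0.640, 33.4 and 17.9 CPM in ASO2 tumors 1 to 4, so that ASO2 tumor 3 was high for it while Myh4 had 0 reads there. The same ASO2 tumor 1 had the largest share of reads with several alignments relative to reads assigned, 44.0% against 24.1 to 32.0% in the other 9 tumors, and of reads in no gene, 24.5% against 11.1 to 19.3%. The part of fat cell RNA and of library quality in the muscle values was not tested.

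In the tumors 7 members had enough reads to enter the fit, by edgeR's filterByExpr; Myh3, Myh7 and Myh8 did not. ASO2 against scASO gave fitted log2 fold changes from 3.52 ± 1.60 (SE) for Myh2 to 6.69 ± 2.32 for Myh4, with 3 scASO and 4 ASO2 tumors. Without ASO2 tumor 1 the estimates ranged from 0.42 ± 0.50 for Ttn to 2.02 ± 1.44 for Myh4, and Myh2 no longer entered the fit, so that 1 tumor set their size. ASO1 against scASO gave 5 negative estimates, the lowest -3.92 for Myh4, and 2 positive ones, 2.74 for Myh2 and 0.89 for Ttn. The estimates of Myh1, Acta1 and Mylpf turned positive without scASO tumor 3 (0.42, 1.47 and 0.03), that of Ckm changed from -2.42 to -0.34, and that of Myh2 turned negative without ASO1 tumor 2 (-0.79). At an adjusted p under 0.05 in edgeR's quasi-likelihood test, none of the 7 was called in either comparison, beside a background of 0.00576% of genes for ASO1 and 0% for ASO2 against scASO; nothing is read from the members' count, since tumor values led to their choice. The 36 other sarcomere genes had 30 tested and none called in either direction; 29 estimates were above 0 for ASO2, with a median log2 fold change of 3.80 beside 0.04 over all genes, and 0.62 without ASO2 tumor 1.

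**Figure D2:**
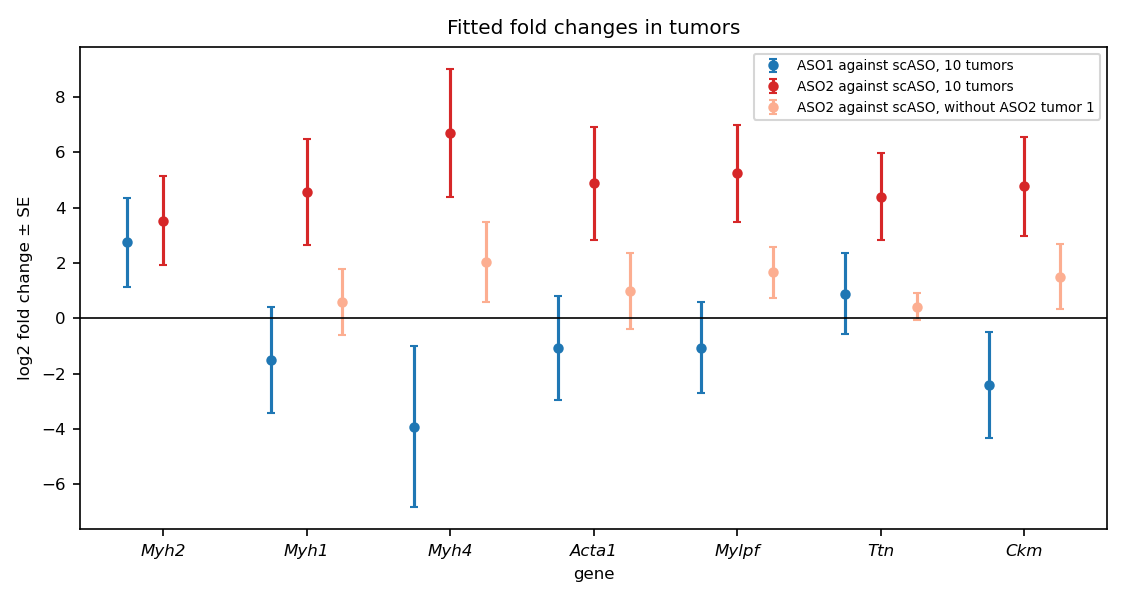
Fitted log2 fold change with its standard error (vertical axis) for the 7 members tested in tumors (horizontal axis), for ASO1 against scASO, ASO2 against scASO, and the latter without ASO2 tumor 1, where Myh2 had too few reads. The estimate for Myh4 under ASO2 falls from 6.69 to 2.02 once that tumor is left out.

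In organoids the members were low, and of the myosin genes Myh3 led per kilobase of exons in 11 of 16 cultures. The median of Myh8 was 0.137 CPM, under the 0.458 CPM of Myh1 and the 0.226 CPM of Myh2. Myh3 was at 1.22, 2.91, 0.0494 and 0.0771 CPM in Mock, 14.1, 0.0256, 2.17 and 2.61 CPM with scASO, 0.0752, 3.38, 0.0659 and 0.858 CPM with ASO1, and 5.60, 2.38, 1.14 and 0.0307 CPM with ASO2. The groups overlapped: each held cultures above 0.8 CPM and cultures under 0.1 CPM, although without the library labelled scASO replicate 2 the scASO cultures were at 2.17 to 14.1 CPM, of which 2 still lay below the highest Mock culture. Myh8 was at 0.0762, 1.1, 0 and 0 CPM in Mock, 2.78, 0.0256, 0.751 and 0.780 CPM with scASO, 0.0251, 0.675, 0 and 0.0677 CPM with ASO1, and 1.52, 0.637, 0.199 and 0 CPM with ASO2. The cultures high in Myh3 were high in Myh8 (Spearman's rho 0.91 over 16 cultures, which share 4 replicate numbers). Ttn was at 1.22, 2.09, 0.346 and 0.617 CPM in Mock, 6.87, 0.743, 2.09 and 1.44 CPM with scASO, 1.4, 1.33, 0.775 and 0.610 CPM with ASO1, and 3.02, 1.58, 0.621 and 0.399 CPM with ASO2. scASO culture 1 was highest for Myh3, Myh8, Ttn, Myh1 and Myh7, and the library labelled ASO2 replicate 1 was second for Myh3, Myh8 and Ttn; both carry the number 1, and the second is one of the 2 that go against their labels. Of the 10 members, 5 (50%) peaked in scASO culture 1, against 7.89% of the 18275 genes with a mean of at least 0.1 CPM in organoids. Organoid values of Ttn and Myh8 led to the choice of the members, and both peaked there, so this share restates that choice in part.

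Acta1 and Mylpf, the actin and the light chain, followed another order. Acta1 was at 2.54, 2.44, 5.06 and 3.08 CPM in Mock, 7.96, 2.2, 5.09 and 8.69 CPM with scASO, 1.86, 14.7, 3.58 and 16.2 CPM with ASO1, and 8.85, 13.5, 5.73 and 8.37 CPM with ASO2. All 4 ASO2 cultures were above the 4 Mock cultures. So were the scASO cultures, except the library labelled scASO replicate 2 (2.2 CPM), and ASO1 cultures lay on both sides. That library and the one labelled ASO2 replicate 1 go against their labels. The share of all genes that separate in this way was not computed, so nothing is read from it. Mylpf was at 0.838, 2.22, 1.01 and 2.39 CPM in Mock, 2.97, 1.05, 1.33 and 3.82 CPM with scASO, 0.702, 2.28, 1.02 and 5.24 CPM with ASO1, and 2.90, 2.99, 1.22 and 2.79 CPM with ASO2, highest in ASO1 culture 4, where Acta1 was highest too. The adult fast and slow genes were scarce: Myh1 reached 1.80 CPM, Myh2 0.800 CPM and Ckm 0.221 CPM, while Myh4 had at most 3 reads and Myh7 at most 4 in any of the 16 cultures.

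**Figure D3:**
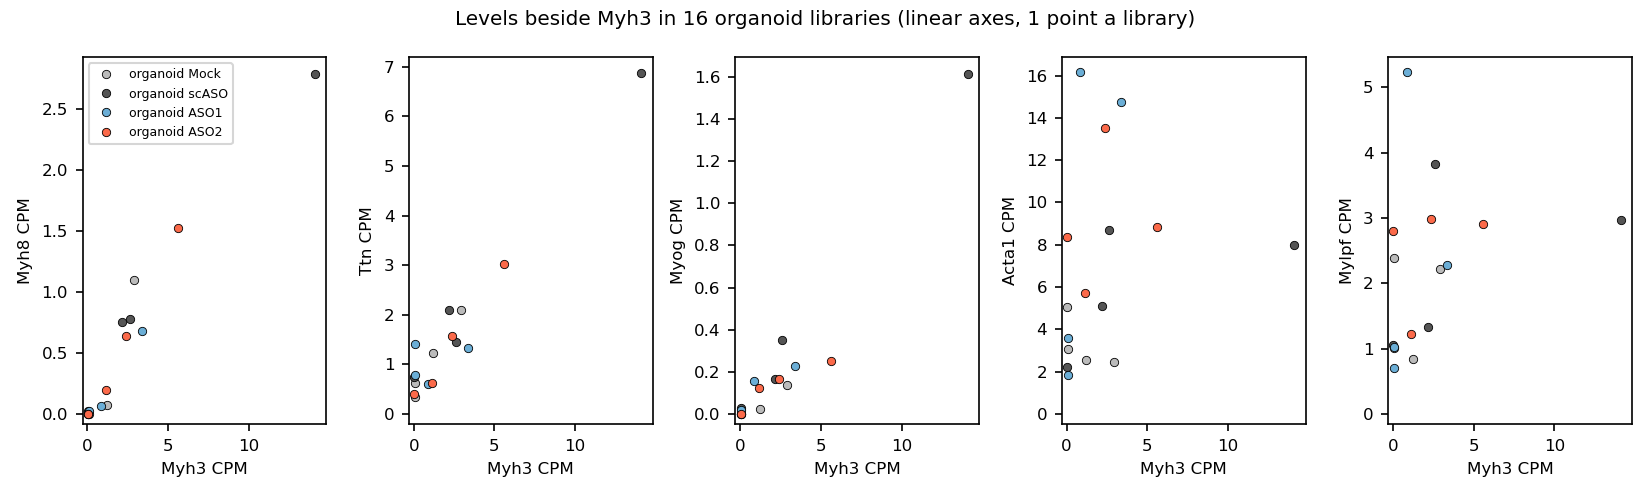
CPM of Myh8, Ttn, Myog, Acta1 and Mylpf (vertical axes) beside that of Myh3 (horizontal axes) in the 16 organoid cultures, 1 point each, coloured by treatment. Myh8 rises with Myh3 up to scASO culture 1 (14.1 and 2.78 CPM), whereas the highest Acta1 (16.2 CPM) is in a culture with 0.858 CPM of Myh3.

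Genes of forming muscle were detected beside Myh3 and Myh8, at low levels. In scASO culture 1 Myog was at 1.61 CPM, Myod1 at 0.963 CPM, Mymk at 1.2 CPM, and the foetal acetylcholine receptor subunits Chrng and Chrnd at 0.807 and 0.963 CPM; each was the highest of the 16 cultures. Of the list of embryonic, regenerating or denervated muscle, 8 of 12 genes peaked there (66.7%). So did 6 of 13 myogenic regulators and fusion genes (46.2%) and 14 of 36 other sarcomere genes (38.9%). The share was 7.89% of the 18275 genes with a mean of at least 0.1 CPM, a limit the lists did not have. The embryonic list summed to 130 CPM in scASO culture 1, inside the 68.5 to 154 CPM of the other cultures. The 36 sarcomere genes summed to 325 CPM there, inside the 203 to 434 CPM of the others. In the other 15 cultures Myog was at 0 to 0.351 CPM. Summed over the whole list of myogenic regulators, scASO culture 1 held 41.0 CPM, inside the 15.2 to 55.7 CPM of the other cultures; its most abundant genes were Mef2c and Six4, which many cell types use, at a mean of 22.1 and 9.72 CPM over the 16 cultures. Myf6, Pvalb and Myl2, which are genes of mature fibres, had at most 3 reads in every organoid culture, and of the adipocyte list Adipoq was at most 0.401 CPM.

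In organoids 7 members entered the fit; Myh4, Myh7 and Ckm had too few reads. Against Mock, scASO gave log2 fold changes of 2.11 ± 1.63 (SE) for Myh3, 1.82 ± 1.64 for Myh8, 2.19 ± 0.91 for Myh1 and 1.35 ± 0.76 for Ttn, with 4 cultures in each group. ASO1 against Mock gave 0.07 ± 1.58 for Myh3 and -0.04 ± 0.75 for Ttn, and ASO2 against Mock 1.13 ± 1.59 and 0.43 ± 0.75. Against scASO, ASO1 gave -2.05 ± 1.62 for Myh3, -2.46 ± 1.69 for Myh8 and -1.39 ± 0.75 for Ttn, and ASO2 gave -0.98 ± 1.57, -0.83 ± 1.58 and -0.92 ± 0.75. All of these comparisons share the scASO or the Mock cultures. Acta1 gave 1.52 ± 0.61 for ASO1 and 1.53 ± 0.61 for ASO2 against Mock, and 0.86 ± 0.61 for scASO against Mock. Single cultures moved these estimates by more than 1.5 times or turned them. Without scASO culture 1, the scASO against Mock estimates were 0.58 for Myh3, 0.77 for Myh8 and 0.40 for Ttn, and those of ASO1 against scASO were -0.50, -1.38 and -0.43. The ASO2 against scASO estimates then turned positive, to 0.56, 0.24 and 0.03. Without Mock culture 2, scASO against Mock was at 3.39 for Myh3 and 5.16 for Myh8. Without ASO1 culture 2, ASO1 was at -1.64 for Myh3 against Mock, and at -3.75 for Myh3 and -5.03 for Myh8 against scASO.

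Without the 2 libraries that go against their labels, 5 of the 7 ASO2 against Mock estimates were above 0 instead of 7, and their median was 0.36 instead of 0.99. In that comparison Myh3 changed from 1.13 to 0.18, Myh8 from 0.99 to -0.11 and Ttn from 0.43 to -0.27. For ASO2 against scASO, Myh3 changed to -2.35, Myh8 to -2.34 and Ttn to -1.93. Mylpf, at 0.07 for ASO1 and 0.17 for ASO2 against scASO, turned to -0.18 and -0.16, and no other estimate changed its sign in the 5 comparisons.

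None of the 7 members was called in any of the 5 organoid comparisons, each beside a background of 0% of 17126 genes in edgeR's quasi-likelihood test, and nothing is read from that count. At an unadjusted p under 0.05, 44 genes passed for ASO1 against scASO, 287 for ASO2 against scASO, 331 for ASO1 against Mock, 312 for ASO2 against Mock and 272 for scASO against Mock; DESeq2 called 7 genes for ASO1 against Mock and 0 in the other 4.

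With the replicate number as a block (replicate block), which the pairing of the organoid cultures allows, the background rose to 2.38% for ASO1 against Mock, 1.82% for ASO2 against Mock and 0.747% for scASO against Mock, and 0 of the 7 members were called in each. In that fit 2 of 9 tested genes of the embryonic muscle list were higher with ASO1 than with Mock, cardiac troponin T (Tnnt2, log2 fold change 1.01 ± 0.24, adjusted p = 0.0452) and the stretch-induced gene Ankrd1 (3.20 ± 0.53, adjusted p = 0.00792). The same genes were higher with ASO2 than with Mock, Tnnt2 by 1.16 ± 0.24 (adjusted p = 0.0326) and Ankrd1 by 2.59 ± 0.52 (adjusted p = 0.0275) in edgeR's test; both are also made outside skeletal muscle. The 2 contrasts share the Mock cultures. The basal keratins Krt5 and Krt14 moved with them, as 2 of 12 tested genes of the smooth muscle and myoepithelial list: Krt5 was higher than in Mock by 0.71 ± 0.13 with ASO1 (adjusted p = 0.0135) and 0.80 ± 0.13 with ASO2 (adjusted p = 0.0132), and Krt14 by 0.80 ± 0.13 in both (adjusted p = 0.00793 and 0.0132). That list's sum was 1783 to 3955 CPM in Mock, 2577 to 7009 CPM with ASO1 and 2507 to 6258 CPM with ASO2. The fat cell gene Fabp4, 1 of 6 tested of its list, was higher with ASO1 by 1.67 ± 0.37 (adjusted p = 0.0320), with a list sum of 87.9 to 163 CPM in Mock and 86.6 to 187 CPM with ASO1. The part of these cell types in the values of Tnnt2 and Ankrd1 was not tested. The blocked fit kept the 2 libraries that go against their labels. Without the block, 9 of 9 tested genes of the embryonic muscle list had estimates above 0 for scASO against Mock (median log2 fold change 1.87). The numbers were 8 for ASO1 and 7 for ASO2 against Mock (medians 0.87 and 1.21). Against scASO they were 2 for each (medians -0.77 and -0.45). For scASO against Mock the only gene called of the myogenic list was the cadherin Cdh15 (2.08 ± 0.43, adjusted p = 0.0470). None of the 22 tested genes of the list of 36 other sarcomere and muscle-fibre genes was called in any organoid treatment comparison, with or without the block; Tnnt2 is not on that list.

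The myosin heavy chains were then compared with each other as shares of the summed reads per kilobase of exons, because the genes differ in length. The length counts every annotated exon base, 11.77 kilobases for Myh8 beside 6.02 for Myh4 and 6.06 for Myh3, which lowers the share of Myh8. In ASO1 tumor 2, Myh3 with Myh8 made up 20.6% per kilobase and 29.5% of reads. In tumors the 3 adult fast genes made up more than 50% in 10 of 10 libraries, and Myh3 with Myh8 made up 0 to 20.6% (median 1.25%). In organoids Myh3 with Myh8 made up more than 50% in 11 of 16 cultures, with a median of 67.1% and a range of 4.60 to 88.2%. Myh4 led in 5 tumors, Myh2 in 4 and Myh1 in 1, while Myh3 led in 11 organoid cultures, Myh1 in 4 and Myh2 in 1. The 5 cultures led by Myh1 or Myh2 were Mock 3, ASO1 1, ASO1 3, ASO2 4 and the library labelled scASO replicate 2, each with 9 to 38 myosin reads.

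The depth behind these shares was uneven. ASO2 tumor 1 had 16996 reads over the 6 genes, of which 6 were from Myh3 and Myh8 (0.0353% of reads, exact 95% binomial interval 0.0130 to 0.0768%), and Myh4 alone made up 87.2% per kilobase. ASO1 tumor 2 had 258 reads, of which Myh3 and Myh8 made up 29.5% (24.0 to 35.4%), the highest share among tumors. scASO culture 1 had 735 reads, of which they made up 88.3% (85.8 to 90.5%), and the library labelled ASO2 replicate 1 had 349 reads with 81.7% (77.2 to 85.6%). At the other end, Mock culture 4 had 4 myosin reads, and its share of 50% had an interval of 6.76 to 93.2%. Related myosin genes also share sequence, which limits counting of uniquely aligned reads: of 50-base stretches of their transcripts, 30.5% in Myh1, 24.6% in Myh2, 18.9% in Myh4, 12.1% in Myh8 and 4.76% in Myh3 also occur in another gene, so levels of the adult genes are uncertain by more than that of Myh3.

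**Figure D4:**
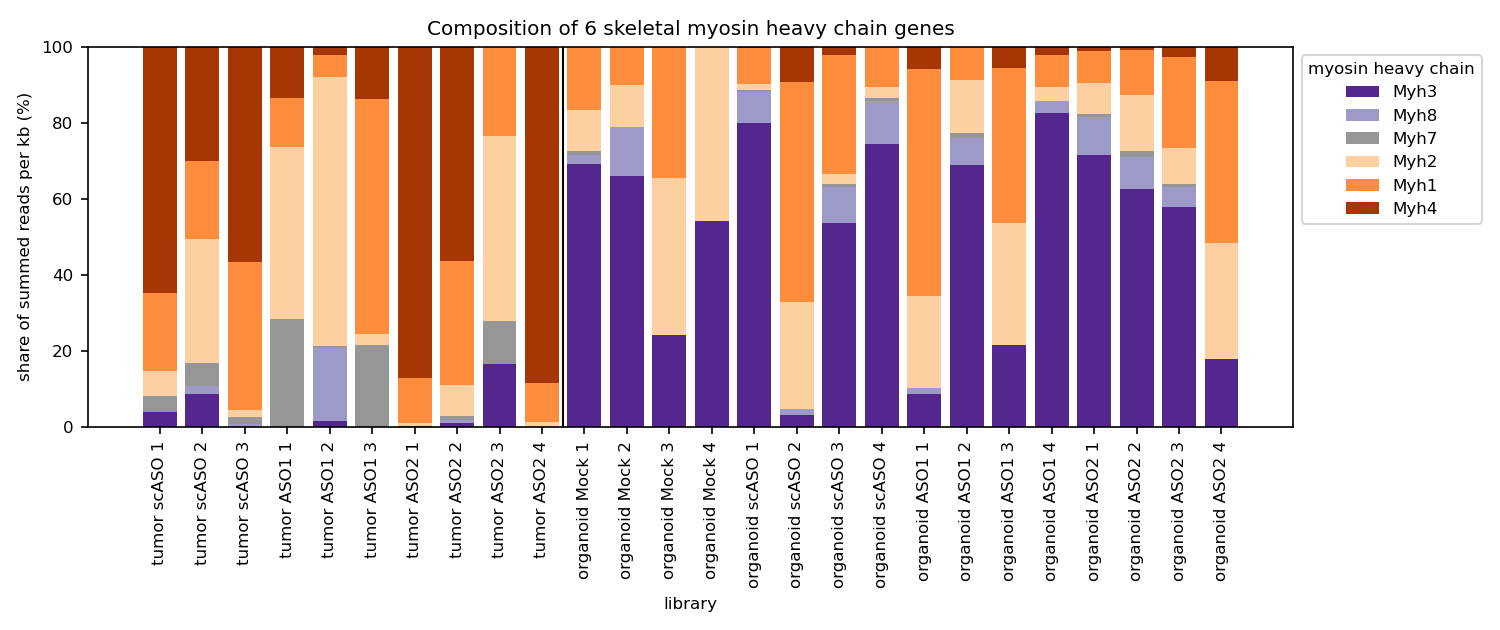
Share of the summed reads per kilobase (vertical axis, stacked to 100%) taken by each of 6 myosin heavy chain genes in the 26 libraries (horizontal axis), with a black line between tumors and organoids. Purple (Myh3, Myh8) exceeds 50% in 11 of 16 organoid cultures and in 0 of 10 tumors, where orange and brown (Myh2, Myh1, Myh4) prevail.

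Tumors and organoids were compared in a fit of all 26 libraries, as the mean of the 3 tumor groups minus the mean of the organoid groups given ASO1, ASO2 and scASO. The values are descriptions with no test, because tumor and organoid values led to the choice of the genes. In addition, Myh3 and Myh8 entered the fit only through organoids, and Myh4 and Ckm only through tumors. With all 10 tumors the log2 fold changes were -6.00 ± 1.14 (SE) for Myh3, 5.80 ± 1.46 for Myh4 and 3.93 ± 0.80 for Ckm. Without ASO2 tumor 1 they were -6.04 ± 1.21, 4.25 ± 0.79 and 2.85 ± 0.62. For Myh3, 10 of 16 organoid cultures were above every tumor. For Myh4, 7 of 10 tumors were above every culture, and for Ckm 6 of 10 were. The fitted sizes for Myh3 and Myh4 rest on few reads on the low side, 13 Myh3 reads in the 10 tumors and 17 Myh4 reads in the 16 cultures, and are not bounds.

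Ttn was at 1.73 ± 0.64 with ASO2 tumor 1 and at 0.42 ± 0.41 without it. Myh8 was at -2.46 ± 1.12, and at -4.77 ± 1.45 without ASO1 tumor 2, the tumor with 73 Myh8 reads. For the remaining 4 members the sign or size rested on 1 tumor. Mylpf was at 1.05 ± 0.63 and, without ASO2 tumor 1, at -0.15 ± 0.45. Myh1 was at 1.49 ± 0.78 and, without that tumor, at 0.18 ± 0.62. Acta1 was at 0.21 ± 0.73 and, without that tumor, at -1.1 ± 0.60. Myh2 was at 0.96 ± 0.71, at 0.18 ± 0.64 without ASO2 tumor 1 and at -0.22 ± 0.66 without ASO1 tumor 2. Of the 9 members in the fit, 4 passed an adjusted p under 0.05 in edgeR, beside 58.3% of 18695 genes; 3 were higher in tumors, beside 29.8%, and 1 was lower, beside 28.5%. Nothing is read from these counts.

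**Figure D5:**
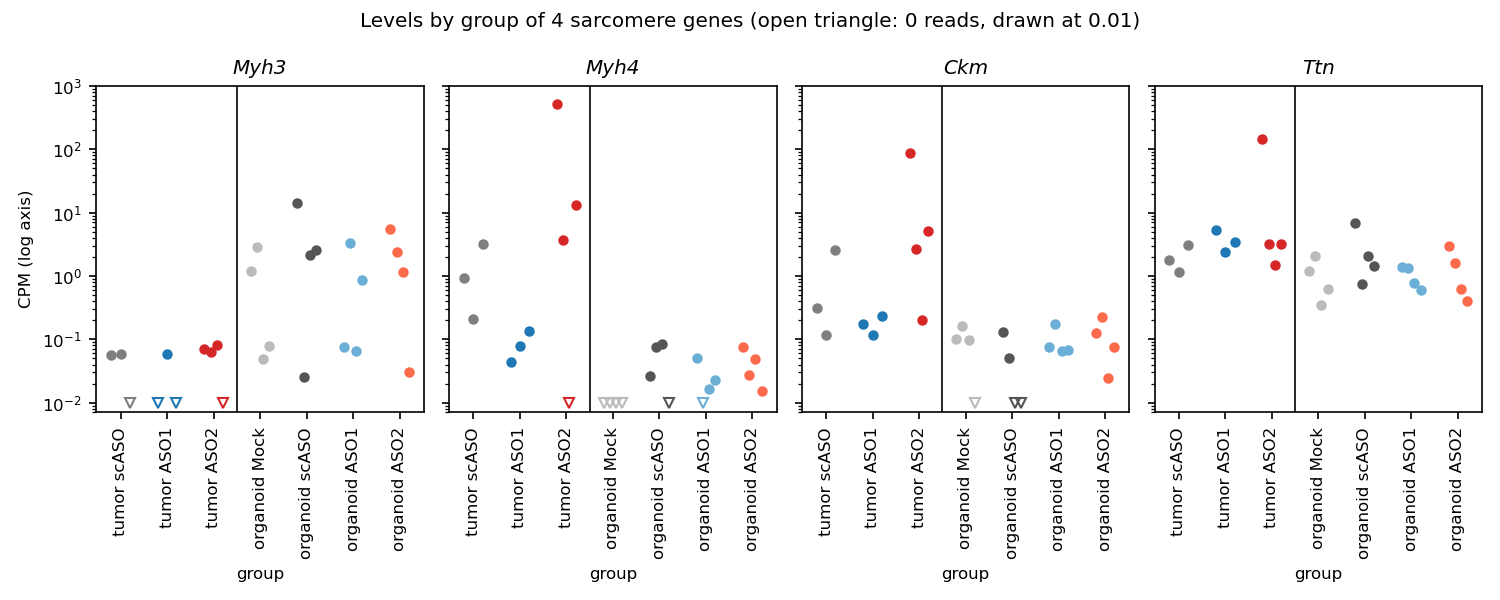
CPM on a log axis (vertical) of Myh3, Myh4, Ckm and Ttn in each library, by group (horizontal), with open triangles at 0.01 for libraries with 0 reads. No tumor exceeds 0.0816 CPM of Myh3 and no organoid culture exceeds 0.0834 CPM of Myh4, while Ttn overlaps between systems except for ASO2 tumor 1.

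The other sarcomere genes divided in a like way. Of 30 tested, 17 were higher and 1 was lower in tumors, and without ASO2 tumor 1 these were 12 and 1 of 26; without the 2 organoid libraries that go against their labels they were 16 and 1 of 30. The 12 and 1 stand beside 27.9% higher and 28.8% lower over all genes. Of this list only 22 genes had enough reads for the organoid fit, beside 30 here, so some may have entered through tumors alone. The counts are therefore a description. Among those higher with all tumors were the Z-disc protein Tcap (log2 fold change 4.05 ± 0.76) and fast troponin I (Tnni2, 2.73 ± 0.64), and the 1 lower gene was slow troponin I (Tnni1, -2.46 ± 0.62), whose isoform is also the one used in developing muscle. Of the embryonic, regenerating or denervated list, 2 of 9 were higher and 3 lower in tumors, the latter being Tnnt2 (-2.93 ± 0.28), the receptor subunit Chrna1 (-2.17 ± 0.77) and Ankrd1 (-1.46 ± 0.55). The number lower was 5 of 10 without ASO2 tumor 1, and 2 of 9 without the 2 organoid libraries or with the replicate block. Of the myogenic regulators, 0 of 6 were higher and 1, Six4, was lower (0 without the 2 organoid libraries that go against their labels); Myog was at -1.83 ± 0.89 and did not pass. Among fat cell genes 8 of 14 were higher and 2 lower in tumors, and among nerve and Schwann cell genes 5 of 8 and 0. Only 6 of the fat cell genes and 7 of the nerve genes had enough reads for the organoid fit. Some of them may thus have entered through tumors alone. Some genes of other tissues were also higher in tumors, and their part in the muscle values was not tested.

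Likeness of pattern gave different neighbours in the 2 systems. Over the 10 tumors, the genes with the highest Spearman correlation with the mean log2 CPM of the 10 members, among 19418 genes, were the Z-disc gene Myoz1 (0.96), Fancc (0.94), Gm11514 (0.94), Klhl31 (0.94) and Pex6 (0.93), all 5 highest in ASO2 tumor 1. Over the 16 organoid cultures, those most like Myh8 were Myl1 (0.96), Tnnt3 (0.91), Chrnd (0.91), Myog (0.91) and Mybpc1 (0.90), all highest in scASO culture 1, and those most like Ttn were Gm25057 (0.87), Myl1 (0.87), Diaph2 (0.85), Mybpc1 (0.84) and Map4k3 (0.83). Between members, the tightest pairs in tumors were Mylpf with Ckm (0.95) and Myh1 with Myh4 (0.88), and in organoids Myh3 with Myh8 (0.91) and Myh8 with Ttn (0.86). These correlations are descriptions over libraries that share depth, replicate numbers and 1 extreme library each, and low genes rest on few reads.

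Compared per kilobase of exons, Acta1 and Mylpf led both in ASO2 tumor 1 and in the median over organoid cultures. The order below them differed. The tumor side is 1 extreme library, so the systems as a whole are not compared. In ASO2 tumor 1 Acta1 was at 324 CPM per kilobase, Mylpf at 290.0, Myh4 at 86.4, Ckm at 30.2, Myh1 at 11.8 and Ttn at 1.27. The median over organoid cultures was 3.52 CPM per kilobase for Acta1, 2.12 for Mylpf, 0.195 for Myh3, 0.0722 for Myh1, 0.0317 for Myh2 and 0.0109 for Ttn, with Acta1 ranging from 1.21 to 10.5 and Mylpf from 0.661 to 4.93, so that these neighbours overlapped. Antisense RNAs of the myosin cluster were scarce and highest in ASO2 tumor 1, Myhas at 0.495 CPM and 9430073C21Rik at 0.248 CPM, both opposite to exons of Myh1 or Myh2; if reads were counted without strand, the 2 strands cannot be told apart.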

How the data were processed

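Per the labels' protocols, TRIzol RNA was selected for poly(A) and made into TruSeq libraries. The authors deposited 1 table of raw read counts per gene for each of 26 libraries; the submitters' processing notes name CASAVA, FastQC, STAR, HTSeq, DESeq2 and the mm9 build, while for versions, annotation and strand the sources used here give nothing. Of 37310 versioned Ensembl IDs, 32620 matched a symbol. Summary lines without a gene were kept apart from totals and fits; relative to reads assigned to genes, ambiguous reads came to 3.90 to 8.70%, reads in no feature to 8.34 to 24.5% and reads with several alignments to 21.2 to 44.0%. No column of another sample was used.

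CPM was computed from the deposited counts over reads assigned to genes. Counts were tested with edgeR 4.0.16 in R 4.3.3 (TMM scaling, filterByExpr at a minimum count of 10 and total of 15, quasi-likelihood F-test, Benjamini-Hochberg adjustment over all genes tested, threshold 0.05), in 3 fits: the 10 tumors, the 16 organoid libraries and all 26. DESeq2 1.42.0 was an alternative, with RLE scaling, no filter, a replicate block, and libraries left out in turn; the closing section gives their effect. The numbers pair the organoid libraries: deviations from the group means correlated at 0.464 to 0.947 in all 24 same-numbered pairs, and in tumors over 0.1 in 3 of 9. Scripts were tested on simulated data. The 10 genes, the marker lists and the likeness rule (5 genes by Spearman correlation, mean CPM of at least 0.1, on log2 of CPM plus 0.1) were chosen with earlier results of these data known. Named are the members, Malat1, and per list the genes of highest mean or those a sentence turns on. Exon lengths and coordinates are those of GENCODE on GRCm38, and promoters those of RefSeq; the count tables hold no coordinates. Of 133 listed symbols, 131 matched.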

Additional observations from a re-analysis of the deposited data

Results flagged for a closer look

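Among groups of 4, 14 of 55 gene and group combinations had 1 library far from the other 3 on the CPM scale by Dixon's criterion, which flags about 1 in 20 groups by chance. The genes were chosen because some stood out in ASO2 tumor 1 and in organoids, so the number of flags restates that choice and is not read against chance. Of these, 7 were in ASO2 tumors, all in tumor 1: Myh4 at 519.9 CPM (next 13.2), Acta1 at 498 (17.7), Mylpf at 308 (14.3), Ttn at 148 (3.22), Ckm at 87.8 (5.13), Myh1 at 74.9 (2.27) and Myh2 at 6.41 (0.640). They come from the same library and are not separate observations.

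In organoids, culture 2 stood above the other 3 for Myh8 in Mock (1.1 CPM, next 0.0762) and in ASO1 (0.675, next 0.0677), both cultures of replicate number 2. ASO1 culture 2 also stood apart for Ckm (0.175 CPM, 7 reads) and Myh7 (0.10 CPM, 4 reads), and Mock culture 1 for Myh7 (0.0254 CPM, 1 read), all of them at very few reads. Mylpf was low in ASO2 culture 3 (1.22 CPM, next 2.79). The library labelled ASO2 replicate 1 stood apart for Malat1 (1315 CPM, next 276).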

How the results depend on the processing

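The number of members called was 0 in all 7 treatment comparisons under every alternative run (RLE scaling, DESeq2, no filter, replicate block, each library of the compared groups left out, and in organoids without the 2 libraries that go against their labels). DESeq2 gave adjusted values for only 1 member in the tumor comparisons. For tumors against organoids, 4 of 9 members passed the threshold, 5 with the replicate block, 3 with DESeq2 and 3 to 5 when 1 library was left out (3 without ASO2 tumor 1); these counts use values that led to the choice of the genes, and nothing is read from them.

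Over all genes, ASO1 against scASO in tumors had 1 call, 0 with the block and 130 with DESeq2; ASO2 had 0, 0 and 44, beside 892 at an unadjusted p under 0.05 in edgeR. With the block, calls in organoids rose from 0 to 407 (ASO1 against Mock), 312 (ASO2 against Mock) and 128 (scASO against Mock), and remained 0 against scASO. Blocked tumors share only a number. The count of members highest in 1 library was 7 in tumors, 4 to 8 with 1 tumor left out (4 in ASO2 tumor 4 without ASO2 tumor 1), and 5 in organoids, 3 to 5 with 1 culture left out. Unscaled reads gave 10 rather than 11 organoid cultures mostly of Myh3 and Myh8. Low reads limit Myh3, Myh7 and Myh8 in tumors and Myh4, Myh7 and Ckm in organoids; a level under 3 reads was not told from 0.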
